A study of Mus musculus with 22 samples.

Results

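Genes of neutrophil matrix proteolysis were followed through the deposited single-cell tables of a mouse transplantation study: Mmp8, Adam8, Mmp9, Mmp25 and Timp2. They were chosen by name, as 4 proteases of neutrophils and 1 of their inhibitors, and are 5 of the 23091 genes in the tables. All 5 were found in the tables, with 1393 Mmp8, 2049 Mmp9, 685 Adam8, 52 Mmp25 and 142 Timp2 transcripts in the cells kept. The contrast of interest was of Mmp8 and Adam8 with Mmp9, across cells, groups and libraries.

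Neutrophils carry their proteases ready-made in granules that form in sequence as the cell matures in the bone marrow. MMP8, the neutrophil collagenase, opens fibrillar collagen and is a specific granule protein. MMP9, or gelatinase B, digests denatured collagen and basement membrane collagen and gives the gelatinase granules their name. MMP25 is held at the membrane by a lipid anchor, and ADAM8 is a membrane-spanning protease that cuts other surface proteins. TIMP2 is a secreted protein that blocks matrix metalloproteases and also takes part in the activation of MMP2 at the cell surface.

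The sorted population (CD45+H2kb+CD11b+Ly6G+) carries a donor class I marker together with the surface markers used for neutrophils, and was taken from ileum of BALB/c recipients on day 21 after an allogeneic transplant. In the group with acute graft-versus-host disease (aGVHD, 12 libraries), recipients received 5000000 bone marrow cells together with 400000 T cells of C57BL/6 donors. In the control group (10 libraries), they received the same number of bone marrow cells and 0 T cells. Recipients of both groups were 7 to 9 weeks old and had been irradiated with 2 doses of 5 Gy, and the C57BL/6N donors were females of 7 to 10 weeks, so that neither group stands for an untreated intestine. The labels do not say which mouse each library came from. The p-values therefore measure only how libraries vary, and part of that may be technical. The titles fall into 2 sets (8 aGVHD and 6 control libraries in a dated set, 4 and 4 in a set named G1), and the set was a term or a stratum in each comparison of the groups.

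The promoters of Mmp8 and Adam8 are shown because these are the genes set against Mmp9 here. Each stretch holds 250 bases before and 50 after the gene's start in RefSeq (GRCm38.p6), 5′ to 3′ on the gene's strand, and lies at chr9:7558179-7558478 on the plus strand for Mmp8 and at chr7:139992513-139992812 on the minus strand for Adam8. Capitals mark matches, on either strand, to TTGCNNAA, the core of sites for C/EBP factors, and to AGGAAG, a core of sites for Ets factors. No match to one motif overlapped a match to another in the stretches shown.
Mmp8 promoter: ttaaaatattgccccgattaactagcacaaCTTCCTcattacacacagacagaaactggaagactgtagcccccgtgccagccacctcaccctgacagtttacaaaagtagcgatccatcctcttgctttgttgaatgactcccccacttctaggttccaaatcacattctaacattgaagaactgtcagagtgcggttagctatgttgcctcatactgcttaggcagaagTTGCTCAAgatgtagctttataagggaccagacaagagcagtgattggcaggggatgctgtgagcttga
Adam8 promoter: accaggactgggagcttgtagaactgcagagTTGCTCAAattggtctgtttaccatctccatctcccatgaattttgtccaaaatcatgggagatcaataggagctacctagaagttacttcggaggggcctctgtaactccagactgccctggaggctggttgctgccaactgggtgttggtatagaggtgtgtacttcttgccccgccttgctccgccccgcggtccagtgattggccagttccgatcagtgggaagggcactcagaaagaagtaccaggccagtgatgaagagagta
Each of these promoters held 1 match to TTGCNNAA, with the same letters, TTGCTCAA. The match began 19 bases before the start in Mmp8 and 219 bases before it in Adam8. Of 27025 mouse promoters of this length, 10.75% held a match. The Mmp8 promoter also held 1 match to AGGAAG, on the other strand and 220 bases before the start, which 35.15% of promoters held. The Mmp25 promoter held 2 matches to AGGAAG, and that of Timp2 held none of the motifs searched. Neither held a match to TTGCNNAA. No link between these motifs and the levels described below was tested. TGANTCA, the core of AP-1 sites, was in 7.93% of promoters and in none of these 4. A promoter entry was found for 4 of the genes, all but Mmp9.

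In each library a set of 96 barcodes held nearly all transcripts, and the totals ran from 45607 to 360054 transcripts per library. Barcodes with at least 500 transcripts were kept, giving 1383 cells of 4224 barcodes. An aGVHD library held 74 to 95 kept cells and a control library 11 to 60, so the control sums rest on fewer cells. The median kept cell of a library held 1557 to 3115 transcripts in aGVHD libraries and 1368 to 4281 in control libraries. Named genes took 21.4% to 68.0% of a library's transcripts, and levels are given as CPM, a gene's transcripts over those of all named genes in the same cells, on the usual 1e6 scale. Counting is from the 3′ end and gives 1 count per transcript whatever its length, so levels of different genes are set side by side on that scale.

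Of the kept cells, 808 fell into 5 clusters that carried neutrophil markers, 625 from aGVHD and 183 from control libraries, and are called neutrophil-like. They made up 45.2% to 82.8% of the kept cells of an aGVHD library (median 56.1%) and 27.3% to 72.9% of a control library (median 47.2%), so the gate also let other cells through. All 32 of the neutrophil markers were detected in these cells in each group, with summed levels of 68680 to 153900 CPM in aGVHD libraries and 64260 to 98900 CPM in control libraries. A macrophage/monocyte-like cluster held 98 cells, and 420 of the other cells lay in 4 clusters that were left unnamed. The 5 genes were not used to cluster or to name cells. In a sum over all kept cells, fewer neutrophils and less of a transcript per neutrophil cannot be told apart.

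Of the 5 genes, Mmp8 had the largest difference between the groups, and aGVHD libraries differed widely among themselves. Over all kept cells its level was 30.8 CPM in the lowest, 159 CPM in the median and 2239 CPM in the highest aGVHD library, against 0, 34.3 and 77.8 CPM in the control libraries. Of the 12 aGVHD libraries, 10 lay above every control library, while replicates 9 and 12 lay among them. The lowest of the 10, replicate 5, stood at 78.3 CPM from 5 transcripts, beside 77.8 CPM from 9 transcripts in control replicate 3. The aGVHD libraries held 1359 Mmp8 transcripts and the control libraries 34, with 3 control libraries at 0. These were replicates 5, 9 and 10, with 12, 12 and 11 kept cells, where 1 transcript would be 117, 54.4 and 68.5 CPM. Their zeros therefore do not show a level below that of the other control libraries. The 3 highest aGVHD libraries (replicates 4, 6 and 7, at 1751, 2239 and 2017 CPM) held 84.55% of the Mmp8 transcripts of their group. Their next neighbour, replicate 3, stood at 601 CPM and the remaining ones at or below 208 CPM. Among 9469 genes with at least 15 transcripts, 24 (0.254%) had 10 or more aGVHD libraries above the highest control library. Genes with as few as 15 transcripts can hardly reach that count, so this is not the share among genes as abundant as Mmp8.

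On the scale of log2(CPM + 50), which understates the change of low genes, Mmp8 was 2.09 higher in aGVHD libraries (8.36 ± 1.76, n = 12, against 6.29 ± 0.50, n = 10, SD), with p = 0.000804 by an exact two-sided permutation of the labels within the title sets. This was 1 of 10 such tests of single genes and was chosen after the data were seen, because Mmp8, Mmp25 and Timp2 did not pass the low-count filter of the planned fit across all genes. With no such filter limma gave Mmp8 a log2 fold change of 2.58 (adjusted p = 0.0143), in a fit whose median over all 16241 genes was -0.88. The permutation gave each library the same weight, including control replicates 5, 9 and 10, at 0 transcripts in 11 or 12 kept cells. Mmp8 passed the filter and was not called among libraries with at least 20 kept cells (2.49, limma p = 0.0569, adjusted p = 0.276) and in the G1 set (3.19, limma adjusted p = 0.279). The permutation difference was 1.83 to 2.25 with each library left out in turn, and 1.52 (exact permutation p = 0.000433) without aGVHD replicates 6 and 7. It was 1.71 in the dated set (exact p = 0.0353) and 2.73 in the G1 set (exact p = 0.0286, the smallest that 4 against 4 libraries allow).

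With the sums restricted to neutrophil-like cells, the difference in Mmp8 did not pass the test. Mmp8 stood at 49.4, 208 and 3098 CPM in the lowest, median and highest of 12 aGVHD libraries, against 90.3, 116 and 163 CPM in the 6 control libraries with at least 10 such cells. Of the aGVHD libraries, 8 lay above every control library, and 3 (replicates 9, 12 and 5, at 49.4, 51.4 and 83.6 CPM) lay below every one. The control levels lay inside the exact interval of Mmp8 in barcodes outside the used set of control libraries, 62.2 to 258 CPM. The 3 low aGVHD levels lay below that of aGVHD libraries, 112 to 271 CPM. The order among these low levels is therefore not read, and the part of such transcripts in them was not tested. Of 6103 genes with at least 15 transcripts, 113 (1.85%) had 8 or more aGVHD libraries above the highest control library in these cells, a share with the same limit. The difference in log2(CPM + 50) was 1.44 (exact permutation p = 0.0819), and limma with no low-count filter gave 2.16 (adjusted p = 0.0997). Without the granule cluster described below it was 0.83 (exact permutation p = 0.19).

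**Figure D1:**
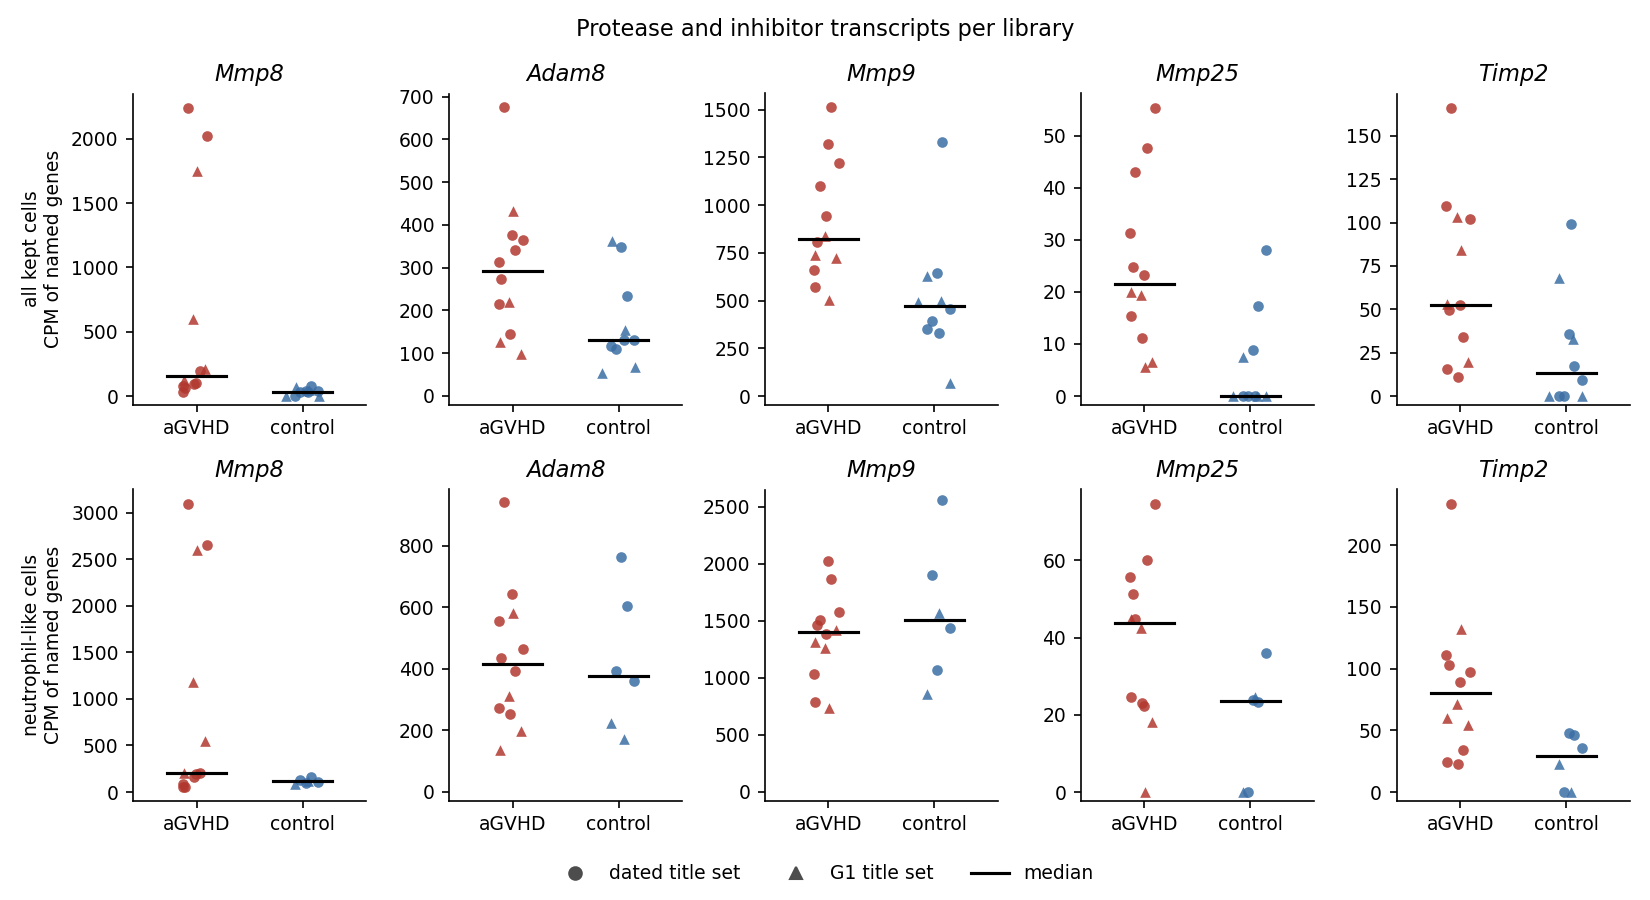
CPM of each gene in each library, over all kept cells (top) and over neutrophil-like cells of libraries with at least 10 of them (bottom), with aGVHD libraries left of control libraries; circles are the dated set, triangles the G1 set and bars the medians. The 3 highest aGVHD libraries stand at 1751 to 2239 CPM of Mmp8 over all kept cells while every control library is at or below 77.8 CPM, and the groups overlap for Adam8 and Mmp9.

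Mmp9 was the most abundant of the 5 genes, and its levels overlapped between the groups. Its level over all kept cells was 501, 824 and 1512 CPM in the lowest, median and highest aGVHD library, against 68.5, 473 and 1332 CPM in the control libraries. The highest control library (replicate 3) lay above 11 of the 12 aGVHD libraries, and the next control library stood at 642 CPM. In the fit of limma across the 1725 genes that passed the filter, the log2 fold change of Mmp9 was 0.64 (SE 0.24) with an adjusted p of 0.0964, and without control replicate 3 it was 0.85 with an adjusted p of 0.0286. It was 0.69 with no low-count filter (limma adjusted p = 0.0348), 0.43 among libraries with at least 20 kept cells (adjusted p = 0.309) and 0.40 with a quality filter on cells (adjusted p = 0.408). This fit called 142 genes (8.23%) at an adjusted p under 0.05, 71 higher (4.12%) and 71 lower (4.12%), and without trimmed-mean scaling the split was 97 higher and 62 lower. An unadjusted p under 0.05 was reached by 427 of the 1725 genes. By exact permutation Mmp9 was 0.87 higher on the scale of log2(CPM + 50) (p = 0.00386), with 0.85 in the dated set (exact p = 0.023) and 0.91 in the G1 set (exact p = 0.0571).

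Among neutrophil-like cells the difference in Mmp9 did not pass the test. Its level was 734, 1398 and 2021 CPM in the lowest, median and highest aGVHD library, against 858, 1507 and 2560 CPM in the control libraries, with 0 aGVHD libraries above the highest control library. The log2 fold change was -0.14 (SE 0.21, limma adjusted p = 0.83 over 808 genes). That fit called 2 genes (0.248%), both lower, and 0 higher (0%), with 102 genes at an unadjusted p under 0.05, so calls in these cells were rare for any gene. The share of neutrophil-like cells among kept cells overlapped between the groups. It was 45.2% to 82.8% in an aGVHD library (median 56.1%) and 27.3% to 72.9% in a control library (median 47.2%). In number these cells were 36 to 72 and 3 to 35, in groups whose libraries also differed in kept cells. The part of this share in the difference in Mmp9 over all kept cells was not tested.

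For Adam8 the groups overlapped, and the difference did not pass the test across all genes. Over all kept cells it stood at 97.5, 293 and 677 CPM in the lowest, median and highest aGVHD library, against 54.4, 131 and 363 CPM in the control libraries. The highest control library, replicate 8 of the G1 set, held 48 Adam8 transcripts, 31 of them in 1 cell that was not neutrophil-like. The weight of this cell in the results over all kept cells was not tested. In 4 aGVHD libraries Adam8 lay above every control library, a count that 7.79% of the 9469 genes reached, and the rest overlapped them. The limma log2 fold change was 0.44 (SE 0.31, adjusted p = 0.41). By exact permutation the difference was 0.64 on the scale of log2(CPM + 50) (p = 0.0352), with 0.76 in the dated set (exact p = 0.0253), 0.42 in the G1 set (exact p = 0.486) and -0.090 in sums of thinned cells. It was above 0.05 when aGVHD replicate 4 or 6 or control replicate 1, 4, 5, 6, 9 or 10 was left out (0.54 to 0.78 over all libraries left out in turn). In neutrophil-like cells the levels were 135, 415 and 943 CPM in aGVHD libraries, against 172, 377 and 763 CPM in control libraries, with a log2 fold change of -0.06 (SE 0.35, adjusted p = 0.963) by limma, of -0.60 without the granule cluster described below (limma adjusted p = 0.474) and a difference of 0.04 by exact permutation (p = 0.896). A gene model on the opposite strand overlaps Adam8 in the GENCODE annotation, and the sources used here do not say whether counting used strand.

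Mmp25 was close to the limit of detection. The aGVHD libraries held 45 transcripts, at 5.63, 21.6 and 55.3 CPM in the lowest, median and highest library, and the control libraries 7, with 6 of 10 at 0 and the highest at 28.0 CPM. In control replicates 5, 6, 9 and 10, all at 0, 1 transcript would be 117, 33.0, 54.4 and 68.5 CPM. Their zeros therefore do not show a low level, and the counts and tests over all kept cells take them as they are. Of the 12 aGVHD libraries, 4 lay above every control library, as for 7.79% of genes. The difference was 0.39 on the scale of log2(CPM + 50) (exact permutation p = 0.00128; 0.46 in the dated set, exact p = 0.0123, and 0.27 in the G1 set, exact p = 0.0857), where 50 CPM is more than most libraries held. It was 0.33 in sums of thinned cells (exact permutation p = 0.104), and limma with no low-count filter did not call it (0.49, adjusted p = 0.356). In neutrophil-like cells, with 40 transcripts in aGVHD and 4 in control libraries, it was 0.37 (exact permutation p = 0.0461; limma with no filter 0.36, adjusted p = 0.589), and p was above 0.05 in 12 of the 18 fits that left out a library (aGVHD replicates 1, 2, 3, 5, 6, 7, 8 and 12 and control replicates 1, 2, 3 and 7). Gene models on the opposite strand overlap Mmp25 as well.

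Timp2, the inhibitor, was higher in aGVHD libraries within neutrophil-like cells by permutation and was not called by limma. These cells held 23.0, 79.9 and 233 CPM in the lowest, median and highest aGVHD library (91 transcripts), against 0, 29.3 and 47.7 CPM in the control libraries (6 transcripts, with 2 of 6 libraries at 0, where 1 transcript would be 24.6 and 65.5 CPM). Of the 12 aGVHD libraries, 9 lay above every control library, and 62 of 6103 genes (1.02%) reached that count. The difference was 0.80 on the scale of log2(CPM + 50) (exact permutation p = 0.0108), 0.68 to 0.88 with each library left out, 0.42 (p = 0.095) without the granule cluster and 0.76 (p = 0.0842) in sums of thinned cells. Limma with no low-count filter gave 1.18 (adjusted p = 0.145). Over all kept cells Timp2 stood at 11.2, 52.7 and 166 CPM in aGVHD libraries, against 0, 13.3 and 98.9 CPM in control libraries, a difference of 0.62 (exact permutation p = 0.0258), and of 0.47 (p = 0.072) without aGVHD replicates 6 and 7 and 0.55 (p = 0.107) in sums of thinned cells. Limma with no filter gave 0.87 there (adjusted p = 0.104). Control replicates 1, 5, 9 and 10 held 0 Timp2 transcripts over all kept cells, where 1 transcript would be 10.1, 117, 54.4 and 68.5 CPM. Within the sets the neutrophil-like difference was 0.67 (dated, exact p = 0.117) and 1.06 (G1, exact p = 0.0667, the smallest that 4 against 2 libraries allow), so it was not past 0.05 in either alone.

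Timp2 was also found in the macrophage/monocyte-like cells, which held 22.5% of its kept transcripts (59.3 CPM) but 3.45% of those of Mmp8 (89.0 CPM) and 4.44% of those of Mmp9 (169 CPM). They held 14.01% of the Adam8 transcripts, at 178 CPM. Of these 96 Adam8 transcripts, 31 lay in 1 cell of control replicate 8. Among neutrophil-like cells the 19 macrophage/monocyte markers summed to 2233 to 6988 CPM in aGVHD libraries (median 3931, with Ms4a7 the only marker at 0), against 2816 to 6413 CPM in control libraries (median 3565, with none at 0). The part of such transcripts in the Timp2 difference was not tested. A same-strand gene, Cep295nl, overlaps Timp2, so reads of these genes may not have been told apart.

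The contrast of Mmp8 with Mmp9 was taken within each library, as the difference of their values of log2(CPM + 50). Over all kept cells it was -1.48 ± 1.75 in aGVHD libraries (n = 12) and -2.64 ± 0.64 in control libraries (n = 10, SD), a difference of 1.21 between the groups (exact permutation p = 0.0514, 1 of 4 such tests). Mmp8 exceeded Mmp9 in 3 libraries, aGVHD replicates 4, 6 and 7, at 1.71, 0.99 and 0.70, and in no control library, where the highest value was -1.24. In neutrophil-like cells the values were -1.59 ± 1.94 in aGVHD libraries (n = 12) and -3.19 ± 0.33 in control libraries (n = 6), a difference of 1.604 (exact permutation p = 0.0443). The call in neutrophil-like cells rests on few libraries: p was above 0.05 when aGVHD replicate 1, 3, 4, 6 or 7 or control replicate 1, 3, 4, 7 or 8 was left out. Over all kept cells, p fell under 0.05 when aGVHD replicate 2, 8, 9, 10, 11 or 12 or control replicate 6 or 10 was left out. Without aGVHD replicates 6 and 7 the difference was 0.69 (exact permutation p = 0.142) over all kept cells and 0.99 (exact permutation p = 0.0905) in neutrophil-like cells, where sums of thinned cells gave 1.54 (exact permutation p = 0.131). Within the sets it was 0.86 (dated, exact p = 0.35) and 1.81 (G1, exact p = 0.0857) over all kept cells, and 1.18 (dated, exact p = 0.19) and 2.45 (G1, exact p = 0.133) in neutrophil-like cells.

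The same contrast for Adam8 did not pass the test, except over all kept cells when these were thinned. Adam8 minus Mmp9 was -1.53 ± 0.68 in aGVHD libraries (n = 12) and -1.29 ± 0.71 in control libraries (n = 10) over all kept cells, a difference of -0.24 (exact permutation p = 0.445). In neutrophil-like cells it was -1.64 ± 0.77 in aGVHD libraries (n = 12) and -1.84 ± 0.78 in control libraries (n = 6), a difference of 0.20 (exact permutation p = 0.616). In sums of thinned cells it was -1.14 over all kept cells (exact permutation p = 0.0163) and -0.20 in neutrophil-like cells (exact permutation p = 0.641), where the sign turned round. Within the sets it was -0.092 (dated, exact p = 0.746) and -0.49 (G1, exact p = 0.486) over all kept cells. The SD over aGVHD libraries was thus 1.75 for Mmp8 and 0.68 for Adam8, each against Mmp9.

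**Figure D2:**
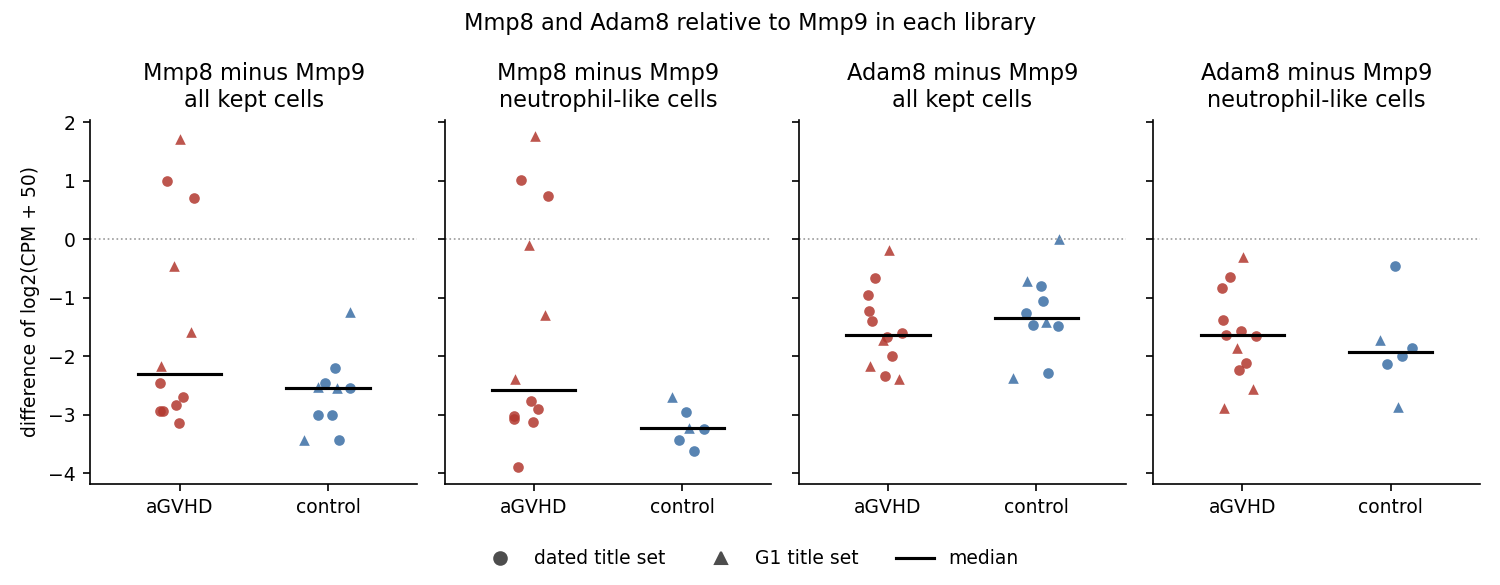
Difference of log2(CPM + 50) between Mmp8 and Mmp9 and between Adam8 and Mmp9 in each library, with aGVHD libraries left of control libraries, bars at the medians and the dotted line at equal levels. The libraries above the line in the Mmp8 panel of all kept cells are aGVHD replicates 4, 6 and 7, and the groups overlap in both Adam8 panels.

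The genes also differed in where their transcripts lay among neutrophil-like cells. The granule cluster (cluster 8, 91 cells, 88 of them from aGVHD and 3 from control libraries) was led by Ngp, Camp and Ltf, genes of specific granule proteins. Its size is not read as a difference between the groups, since the genes that define it differ between them. Mmp8 stood at 4157 CPM there, against 525 CPM in cluster 5, 382 CPM in cluster 2, 153 CPM in cluster 3 and 97.4 CPM in cluster 4. Cluster 5 was led by Arg2 and Asprv1, cluster 2 by Il23a, Cxcl3 and Cxcl2, cluster 3 by Txnip and cluster 4 by Ffar2.

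Adam8 followed the same order of clusters over a smaller range, at 1082, 544, 276, 221 and 190 CPM in clusters 8, 5, 2, 3 and 4. Timp2 did so too, at 235, 87.6, 47.7, 25.5 and 10.3 CPM, and Mmp25 stood at 74.1, 41.5, 40.9, 21.3 and 0 CPM. Mmp9 did not, with 1621 CPM in the granule cluster, 1717 CPM in cluster 3 and 1207 to 1440 CPM in the others. The granule cluster therefore held 78.2% of the Mmp8, 58.2% of the Timp2, 47.7% of the Adam8, 40.9% of the Mmp25 and 23.1% of the Mmp9 transcripts of neutrophil-like cells. Lcn2, the specific granule gene named in the study's title, had 80.2% of its transcripts there, but it was among the genes used to make the clusters. The clusters were made from the same cells, so these levels are a description with no test.

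**Figure D3:**
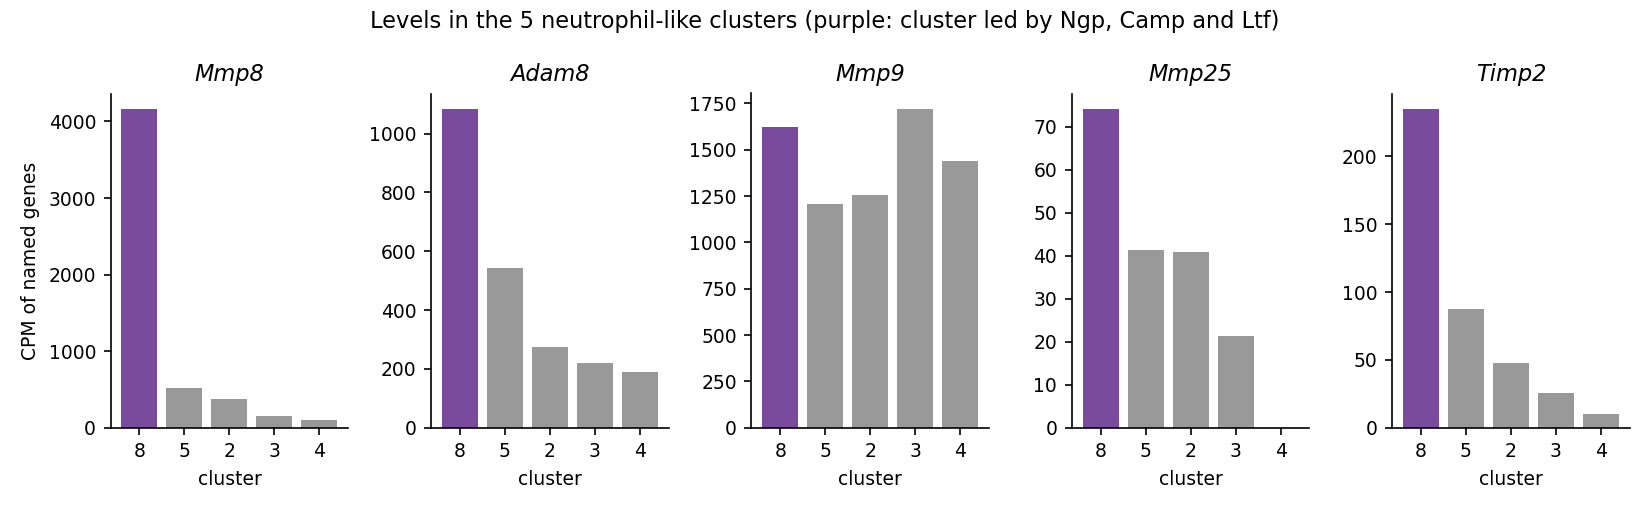
CPM of each gene in the 5 neutrophil-like clusters, ordered by Mmp8, with the granule cluster (cluster 8) in purple; each bar is a sum over all cells of the cluster and has no error. Mmp8, Adam8 and Timp2 fall in the same order of clusters, while Mmp9 stays between 1207 and 1717 CPM.

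The granule cluster differed from the other neutrophil-like cells of the same library in the same genes. In all, 6 libraries, all aGVHD, held at least 3 cells of each kind, with 6 to 27 granule cells per library. Membership was set by the clustering, and the granule cells of aGVHD replicate 8 held no Ngp, as given below. Mmp8 was higher in the granule cluster in 6 of 6, at 430, 4719 and 6092 CPM (lowest, median, highest) against 26.5, 461 and 1105 CPM in the other cells. Adam8 was higher in 6 of 6, at 737, 1002 and 1725 CPM against 159, 287 and 437 CPM, without overlap between the 2 kinds of cells. Timp2 was higher in 6 of 6, at 117, 198 and 414 CPM against 10.98, 39.3 and 95.8 CPM. Its values rest on few transcripts, 57 in all 91 cells of the granule cluster. How many of all genes were higher in 6 of 6 is not given here, so these counts describe the genes and do not set them apart. Mmp9 was higher in 4 of 6, at 859, 1562 and 2208 CPM against 663, 1251 and 2043 CPM, and Mmp25 in 3 of 6.

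**Figure D4:**
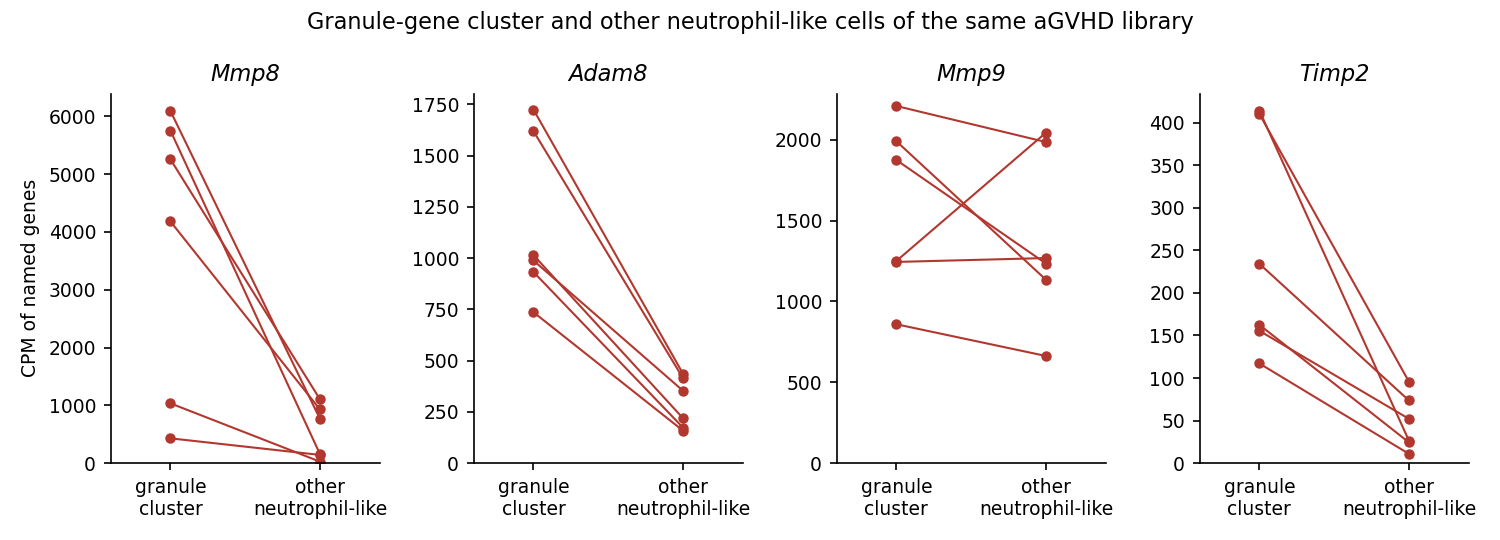
CPM of Mmp8, Adam8, Mmp9 and Timp2 in the granule cluster (left of each panel) and in the other neutrophil-like cells (right), with a line for each of 6 aGVHD libraries that held at least 3 cells of each kind. Every line falls to the right for Mmp8, Adam8 and Timp2, and 4 of 6 do so for Mmp9.

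The granule cells were not alike in Mmp8 between libraries. They stood at 5752 CPM in aGVHD replicate 3, 5256 CPM in replicate 4, 6092 CPM in replicate 6 and 4181 CPM in replicate 7. In replicate 8 they stood at 430 CPM and in replicate 11 at 1035 CPM. Adam8 in the granule cells of those last libraries was at 1015 and 1725 CPM, inside or above the range of 737 to 1620 CPM in the first 4. Lcn2 was at 898 CPM in replicate 8 and 3382 CPM in replicate 11, against 5675 to 10810 CPM in the first 4, and Ngp at 0 and 966 CPM, against 233 to 10070 CPM. The cells of the granule cluster in these libraries, 11 and 7 in number, were thus low in Mmp8 and Lcn2 and not in Adam8. Those of replicate 8 are called granule cells by the clustering alone, since Ngp, which leads the cluster, was at 0 in them.

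Shares of cells were taken after each cell was thinned to 500 transcripts, with exact 95% intervals that cover counting error only. This matches all transcripts and not those of named genes: thinned cells with Mmp8 had held a median of 1872 named transcripts before thinning, against 1223 in cells without. Shares were therefore also taken with each cell thinned to 250 transcripts of named genes. Mmp8 was found in 14.2% of neutrophil-like cells of aGVHD libraries (89 of 625, 11.6% to 17.2%) and in 2.73% of control libraries (5 of 183, 0.893% to 6.26%), with 29.4% and 8.74% before thinning and 13.2% and 4.40% at 250 named transcripts. Of these 89 cells, 22, 19 and 29 came from aGVHD replicates 4, 6 and 7. Each of the other aGVHD libraries held at most 5, with shares of 0% to 11.1%, so the pooled share rests largely on those replicates. Adam8 was found in 9.6% of aGVHD cells and 11.5% of control cells, and Mmp9 in 29.0% and 23.5%. At 250 named transcripts Adam8 was in 9.82% of aGVHD and 6.59% of control cells and Mmp9 in 25.6% and 27.5%, so the order turned round for both genes and none is read from these shares. Mmp25 was found in 4 of 625 aGVHD cells (0.64%) and Timp2 in 12 (1.92%), against 0 of 183 control cells for either, which allows up to 1.64% of cells with a transcript at this thinned depth. Before thinning, Mmp25 was in 34 aGVHD cells (5.44%) and 4 control cells (2.19%), and Timp2 in 70 aGVHD cells (11.2%) and 6 control cells (3.28%). Cells of 1 library share their source, so no test was made over cells.

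Outside the neutrophil-like class, Mmp8 was in 1 of 98 macrophage/monocyte-like cells (1.02%) and in 2.94% of the other kept cells outside both classes. Of the other kept cells, 3.85% had Mmp8 in aGVHD libraries and 0.719% in control libraries (1 of 139), below the 14.2% and 2.73% of neutrophil-like cells in these groups. Before thinning these other cells had Mmp8 in 10.7% in aGVHD and 2.16% in control libraries. The median cell then held 6910 transcripts among macrophage/monocyte-like, 1972 among other and 2226 among neutrophil-like cells. Adam8 was in 7.14% of macrophage/monocyte-like cells, a cell type known to express it, and in 1.47% of the other kept cells, and Mmp9 in 7.14% and 5.66%. Before thinning, macrophage/monocyte-like cells had Adam8 in 37.8% and Timp2 in 17.3%, against 32.6% and 9.41% of neutrophil-like cells, so for these genes the order depends on depth. Within the granule cluster, 57.1% of cells had Mmp8, 45.1% Mmp9 and 28.6% Adam8, against 5.86%, 25.5% and 7.67% of the other neutrophil-like cells. At 250 named transcripts the shares were 52.7% for Mmp8 and 26.4% for Adam8 in the granule cluster, against 5.90% and 6.88% of the other neutrophil-like cells. For Mmp9 the order turned round there, at 20.9% against 26.7%, and none is read.

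The transcripts of Mmp8 were also concentrated in fewer cells than those of Mmp9. Before thinning, 200 of the 808 neutrophil-like cells held the 1291 Mmp8 transcripts, with up to 52 in a cell, and the 10 highest cells held 28.0% of them. Mmp9 transcripts (1709) were spread over 555 cells, with up to 27 in a cell and 10.4% in the 10 highest. Adam8 (551 transcripts) lay in 263 cells, of which 57.4% held a single transcript, with up to 10 in a cell. Mmp25 and Timp2 reached 3 transcripts in a cell at most.

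Cells with transcripts of 2 of the genes were counted beside the number that the shares in each library would give if the genes were found independently. Mmp8 and Adam8 were found together in 19 thinned neutrophil-like cells, against 11.6 from the shares. Mmp8 and Mmp9 were together in 36, against 29.1, and Adam8 and Mmp9 in 33, against 23.4. Mmp8 and Lcn2 stood further apart from that number, at 57 against 33.8. Once split by cluster, Mmp8 and Adam8 were together in 16 granule cells (14.3 from the shares) and in 3 of the 717 other cells (3.07 from the shares). So 20.2% of cells with Mmp8 also had Adam8, and 38.3% also had Mmp9, at a depth where 27.7% of all neutrophil-like cells showed Mmp9.

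To compare what else they expressed, neutrophil-like cells with Mmp8 and no Mmp9 were set against cells of the same library with Mmp9 and no Mmp8, leaving both genes out of the fit. In aGVHD replicates 1, 4, 6 and 7, and in no other library, there were at least 3 cells of each kind, 4, 18, 11 and 15 Mmp8 cells against 10, 8, 12 and 15 Mmp9 cells. Of 388 genes tested by limma on sums per library, 28 (7.22%) were called, 15 higher (3.87%) and 13 lower (3.35%) in Mmp8 cells. The Mmp8 cells were somewhat deeper, with a median of 2614 transcripts against 2116, and 54.2% of them lay in the granule cluster, against 11.1% of Mmp9 cells.

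Among the genes higher in Mmp8 cells, Retnlg, a resistin-like gene of neutrophils, had 11390 to 24120 CPM, against 410 to 6430 CPM in Mmp9 cells, without overlap (log2 fold change 3.64, SE 0.40, limma adjusted p = 1.33e-05). Adam8 itself was among them, with 677, 806 and 1825 CPM (lowest, median, highest) in Mmp8 cells, against 0, 78.6 and 823 CPM in Mmp9 cells, higher in 4 of 4 libraries (1.99, SE 0.49, adjusted p = 0.0193). The alarmin genes S100a8 and S100a9 were higher in 4 of 4 libraries, by 1.69 and 1.69 (adjusted p = 0.00238 and 0.00497). Lcn2 was higher in 3 of 4, at 4289 to 7574 CPM against 1086 to 8860 CPM (1.46, SE 0.38, adjusted p = 0.0264). Dgat1, an enzyme of triglyceride synthesis, Prr13, Samhd1, a nucleotide hydrolase, the chemokine gene Ccl6 and S100a6 completed the first 10, with log2 fold changes of 1.45 to 2.07.

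Of the 13 genes lower in Mmp8 cells, Ccl3 and Il1a had the largest log2 fold changes. Ccl3, a chemokine, had 39.7 to 1305 CPM in Mmp8 cells, against 706 to 7716 CPM in Mmp9 cells, and was lower in 4 of 4 libraries (-2.75, SE 0.34, limma adjusted p = 4.16e-05). Tnf had 198 to 1109 CPM, against 431 to 4879 CPM, also lower in 4 of 4 (-2.34, SE 0.37, adjusted p = 0.000513). Il1a, the gene of interleukin-1 alpha, fell by 2.70 on the log2 scale, and Ninj1, a gene of a protein that ruptures the membrane of dying cells, by 2.39. The growth factor gene Csf1, the actin-severing Gsn, the chemokine-binding receptor Ccrl2, the interleukin-1 antagonist Il1rn, Mpeg1 and the adhesion molecule Icam1 were lower by 1.30 to 1.78.

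**Figure D5:**
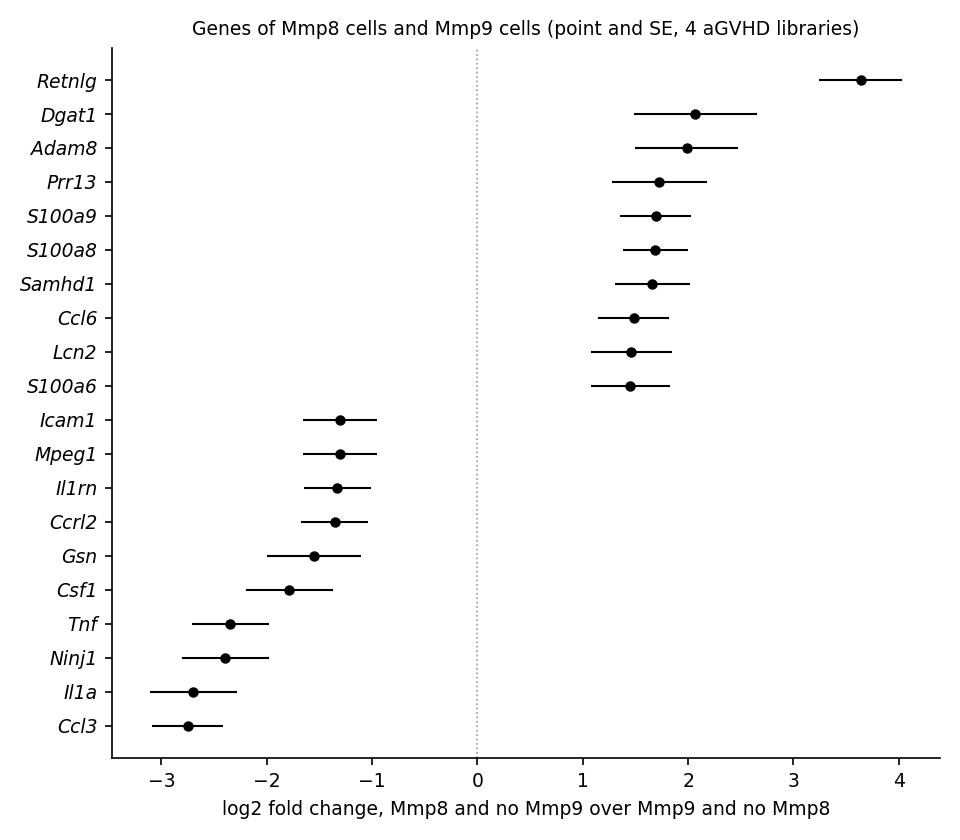
Log2 fold change with its SE of the 20 named genes in neutrophil-like cells with Mmp8 and no Mmp9 over cells with Mmp9 and no Mmp8, from 4 aGVHD libraries. Retnlg (3.64) and Adam8 (1.99) lie among the genes higher in Mmp8 cells, and Ccl3 (-2.75) and Tnf (-2.34) among those lower.

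Of these, Retnlg and Ccl3 stayed past the threshold with each of the 4 libraries left out in turn. Adam8 did not without aGVHD replicate 1 (1.68, limma adjusted p = 0.094), replicate 4 (1.77, adjusted p = 0.112) or replicate 7 (1.75, adjusted p = 0.0595). The count of calls was 7 without replicate 1, 2 without replicate 4, 35 without replicate 6 and 9 without replicate 7. Without the granule cluster 0 of 151 genes were called by limma, with 25 at an unadjusted p under 0.05. Retnlg was then at 1.54 and Ccl3 at -1.44. Adam8 was not among those 151 genes, so the fit does not show whether it differed outside the granule cluster. Lcn2 did not stay past the threshold without replicate 1, 4 or 7, S100a8 without 1 or 4, and Tnf without 4.

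The same comparison for Adam8 used 8 libraries (5 aGVHD, 3 control) with 37 cells with Adam8 and no Mmp9, against 88 cells with Mmp9 and no Adam8. Status was again called in thinned cells. In the sums Mmp9 stood at 337 to 1611 CPM in the Adam8 cells, against 1328 to 5868 CPM in the Mmp9 cells. By limma, 0 of 114 genes (0%) were called, with 23 at an unadjusted p under 0.05. The leading genes were again Retnlg (1.75, higher in 8 of 8 libraries), S100a8 (1.07, 8 of 8) and S100a9 (0.95, 7 of 8), each at an adjusted p of 0.055. Lcn2 was at 0.73 (adjusted p = 0.15). Mmp8 had 0, 1355 and 6081 CPM (lowest, median, highest) in Adam8 cells, against 0, 249 and 4011 CPM in Mmp9 cells, and was higher in 5 of 8 libraries. The granule cluster held 32.4% of the Adam8 cells and 20.5% of the Mmp9 cells. The count was 9 without control replicate 3, 7 without aGVHD replicate 6, and 3 without aGVHD replicate 7 or 9.

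Across the 808 thinned neutrophil-like cells, the genes most like Mmp8 among 901 were Retnlg (r = 0.58), Lcn2 (0.46), S100a8 (0.44), S100a6 (0.38) and S100a9 (0.37), after the library means were taken out. These are descriptions, since the genes of a cell share its depth. Those most like Adam8 were Retnlg (0.29), S100a9 (0.28), S100a8 (0.24), S100a6 (0.23) and Lrg1 (0.22), so that 4 of its 5 were also among those of Mmp8. For Mmp9 the highest values were weak (Lrrc58 0.19, Card19 0.16, Sorl1 0.16 and Actb 0.16 among them) and are no finding, as are those of Mmp25 (Rpl37, Rab8a, Zfp36l1, Cd82 and Actn1, 0.14 to 0.19) and Timp2 (Sepn1, S100a8, Csf3r, Retnlg and Hp, 0.15 to 0.20).

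Around these genes, lists of other granule, protease and inhibitor genes were followed over all kept cells. The fit called 4.12% of all 1725 genes higher, the share to read each list's count against. Of 12 specific granule genes, 6 were tested and 3 rose by limma: Lcn2 (log2 fold change 2.63, adjusted p = 0.0435), Chil1, a chitinase-like protein (1.97, adjusted p = 0.00757), and the haptoglobin gene Hp (1.81, adjusted p = 0.012), with a median of 1.08 over the 6, beside 0.01 over all genes tested. Of 16 genes of gelatinase granules and secretory vesicles, 8 were tested and 3 rose: the integrin gene Itgam (0.83), Fpr1 (1.46) and Fpr2 (1.29), which encode receptors of formylated peptides, with a median of 0.62 over the 8. The 18 other matrix proteases and the 12 inhibitors and cofactors gave 3 and 6 tested genes and 0 calls, with medians of 0.14 and 0.18, and Mmp14, Adam17 and Adam28 were the proteases tested. Of 10 cathepsins, 8 were tested and Ctsd rose (0.98, adjusted p = 0.0197), with a median of 0.35. Of 12 adhesion and receptor genes whose proteins surface proteases cut, 10 were tested and Tnf (1.16) and Il6ra (0.83) rose, while Selplg (0.56, adjusted p = 0.124) did not pass, with a median of 0.49. The azurophil granule list had 1 gene tested, Cd63 (0.09), and it was not called.

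Of the 13 companion genes, Lcn2 and 5 others rose over all kept cells, where 4.12% of all genes tested were called higher. S100a8 (1.96, limma adjusted p = 0.00865), S100a9 (1.495, adjusted p = 0.00836), Retnlg (2.36, adjusted p = 0.0411), Cxcr2 (0.92, adjusted p = 0.0394) and Csf3r (0.48, adjusted p = 0.0483) were those 5. Txnip (0.73, adjusted p = 0.0644) and Cxcr4 (-0.14) did not pass, and Ngp, Ltf and Camp failed the filter. Among neutrophil-like cells 0 genes of any of these lists and 0 companions were called by limma, and the 6 specific granule genes tested had a median of 1.47, beside -0.03 over all genes tested. The values there were 2.14 for Lcn2 (adjusted p = 0.48), 3.53 for Chil3 (adjusted p = 0.248) and 1.11 for S100a8 (adjusted p = 0.29). In the comparison of Mmp8 with Mmp9 cells, Lcn2 was the 1 specific granule gene called of 6 tested, and Icam1 and Tnf the 2 called of 8 tested in the adhesion list, both lower. The medians of these lists were 0.04 and -0.08. Of the specific granule genes not called, Ngp (1.21) and Hp (0.45) were higher in Mmp8 cells. Cybb (-1.33, limma adjusted p = 0.0622), Chil3 (-0.81) and Chil1 (-0.37) were lower. Ngp, Ltf and Camp were each higher in 2 of 4 libraries.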

How the data were processed

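The authors deposited, for each of 22 libraries, a table of estimated transcript counts (the unit is entered as other; no values normalised for depth). All 1419098 nonzero values matched what a whole count of identifiers, corrected for repeated draws from 4096, would give (tolerance 1e-06). Libraries were made by CEL-Seq2, per the labels' protocols, and the submitters' processing notes name BWA 0.6.2-r126 and bcl2fastq 2.17.1.14; the genome build and annotation are not given in the sources used here. Of 111 pairs of libraries within a group, 0 held identical values. Values were rounded, and barcodes with at least 500 transcripts kept. Barcode numbers are the same in every library by design, so shared ones say nothing of shared cells. The 96 barcodes taken as used were read from the totals; 2 kept barcodes lay outside them, and the others held 1.42% to 16.0% of a library's transcripts.

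Cells were clustered on 178 marker and list genes without the 5 genes (12 principal components, 15 neighbours, Leiden resolution 1; scikit-learn 1.9.0, igraph 0.11.9, leidenalg 0.10.2), and clusters were named from at least 5 markers raised 1.5-fold, thresholds set after the clusters were seen. No doublet caller was run, and a quality filter was tried as an alternative. Sums per library were tested with limma 3.58.1 (R 4.3.3) with voom weights, trimmed-mean scaling and the title set as a term, over genes that reached 10 transcripts (scaled to a library of median size) and a total of 15, adjusted by Benjamini-Hochberg at 0.05. The planned test was limma, since the tables hold estimates under bare-number column names and no count model was used. Single genes and their differences were tested by exact two-sided permutation within title sets on log2(CPM + 50) (Python 3.11.15); that of single genes was added after the data were seen. The smallest p these allow is 4.76e-06 over all kept cells and 0.000135 over neutrophil-like cells. The tests were checked on simulated data.

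The members, gene lists and tests were chosen with earlier results of these data known. Besides the 5 genes, the text names 13 companions set by name, the 10 genes of largest change in each direction among those called between cells of different status, the 5 genes most like each member and the list genes called; the genes that lead clusters, Ms4a7 and overlapping gene models are named as description. A few genes that these rules name are not reported here.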

Additional observations from a re-analysis of the deposited data

Results flagged for a closer look

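The Mmp9 level of control replicate 3 over all kept cells, 1332 CPM, stood far above the other control libraries, of which the next was at 642 CPM. Its gap to that library, as a share of the range of the 10 control libraries, passed Dixon's critical value. This was 1 flag among 14 groups of libraries tested, and chance flags about 1 in 20 groups (5%). Without this library the log2 fold change of Mmp9 over all kept cells was 0.85 (limma adjusted p = 0.0286), against 0.64 (adjusted p = 0.0964) with it.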

How the results depend on the processing

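Of 142 genes called over all kept cells, the count was 39 in the dated set alone, 9 in the G1 set alone, 19 with at least 20 kept cells per library, 17 with a quality filter on cells and 2855 with no low-count filter (119 higher, 2736 lower), where the median of all genes was -0.88. Leaving out each library gave 62 to 186, with 62 without control replicate 1, 78 without 4, 85 without 6 and 88 without 9. The Mmp9 log2 fold change was 0.69 with no filter (limma adjusted p = 0.0348), 0.40 with the quality filter (adjusted p = 0.408), 0.43 with at least 20 kept cells (adjusted p = 0.309) and 0.55 to 0.85 with each library left out. That of Adam8 was -0.073 in the G1 set, which holds control replicate 8 with 31 of its 48 Adam8 transcripts in 1 cell. It was 0.30 to 0.65 with each library left out.

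In neutrophil-like cells, where 2 genes were called, the count was 1 without trimmed-mean scaling and in either title set, 5 with neutrophils taken by marker sum, 0 with a minimum of 250 or 1000 transcripts, without the granule cluster or with at least 5 cells per library, and 0 to 3 with each library left out. The log2 fold change of Adam8 was 0.011 with no filter, 0.50 in the G1 set, 0.23 by marker sum, 0.0046 with at least 5 cells, -0.20 in the dated set, -0.60 without the granule cluster (limma p = 0.051, adjusted p = 0.474), and -0.16 to 0.16 with each library left out. That of Mmp9 was 0.016 in the G1 set, 0.23 by marker sum and -0.26 to 0.014 with each library left out.

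Titles repeat numbers across groups in the dated set, and a number paired libraries by no label. Correlations of deviations ran from -0.12 to 0.14, and 2 of 6 libraries were most like their own number. With the title number as a replicate block, 13 genes were called over all kept cells (5 in the same libraries without it) and 7 in neutrophil-like cells (0 without it). Adam8 in neutrophil-like cells was then 0.18 (0.077 without it), and Mmp8 minus Mmp9 was 2.26 (exact permutation p = 0.125, the smallest that 4 pairs allow).

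Between Mmp8 and Mmp9 cells, 10 genes were called with status taken without thinning, 4 with thinned sums, 7 with at least 5 cells of each kind, 0 without the granule cluster and 2 to 35 with each library left out. Adam8 was 1.68 with at least 5 cells (limma adjusted p = 0.0936) and 1.68 to 3.21 with each library left out. It was not among the genes tested with status taken without thinning, with thinned sums or without the granule cluster. Between Adam8 and Mmp9 cells the counts were 8, 2 and 5 under those first 3 settings, 3 without the granule cluster, 6172 with no filter (a median of 0.71 over all genes) and 0 to 9 with each library left out.

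By permutation in neutrophil-like cells, Mmp8 minus Mmp9 was 1.18 in the dated set, 2.45 in the G1 set, 1.54 with thinned sums, 0.99 without aGVHD replicates 6 and 7, and 1.08 without the granule cluster, none past 0.05, and 1.32 to 1.78 with each library left out. Adam8 minus Mmp9 was -0.20 with thinned sums, -0.10 without the granule cluster and 0.03 to 0.45 with each library left out. Adam8 was -0.13 in the dated set, -0.19 with thinned sums, -0.055 without replicates 6 and 7, -0.35 without the granule cluster and -0.075 to 0.17 with each library left out. Mmp9 was 0.018 with thinned sums and -0.28 to -0.03 with each left out. Mmp8 was 1.15 to 1.62, Mmp25 0.27 to 0.45 and Timp2 0.68 to 0.88. Over all kept cells, thinned sums gave -1.14 for Adam8 minus Mmp9 (exact permutation p = 0.0163) and -0.090 for Adam8. With each library left out there, Mmp8 minus Mmp9 was 0.92 to 1.35, Adam8 minus Mmp9 -0.38 to -0.10, Mmp8 1.83 to 2.25, Adam8 0.54 to 0.78, Mmp9 0.68 to 1.03, Mmp25 0.36 to 0.44 and Timp2 0.53 to 0.75. The cause of these changes was not tested.

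Shares of neutrophil-like cells of both groups depended on depth. Mmp8 was in 11.6% of cells, 17.6% when thinned to 1000, 24.8% without thinning and 5.82% at 2 or more transcripts. Adam8 was in 10.0%, 19.8%, 32.6% and 1.61%, Mmp9 in 27.7%, 47.8%, 68.7% and 9.16%, and Timp2 in 1.49%, 3.71%, 9.41% and 0% under these settings. At 250 named transcripts Mmp8 was in 11.2%, Adam8 in 9.09%, Mmp9 in 26.03% and Timp2 in 0.872%. Mmp25 was in 0.495%, 4.70% without thinning and 0% at 2 or more. Of the 5 genes most like a member across cells, 1 for Mmp8, 3 for Adam8 and 0 for the others were also among the 5 across libraries. The control libraries, with 11 to 60 cells, limit what can be seen of Mmp25 and Timp2, where 1 transcript can set a library's level.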

Other observations

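Timp1, an inhibitor of matrix metalloproteases, was listed with 4 transcripts among kept cells of aGVHD libraries (10 of 12 libraries at 0) and 0 in control libraries, and with 0 transcripts in neutrophil-like cells of either group.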
